A study of Mus musculus with 17 samples.

Results

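B220+CD23-IgM+ spleen cells were compared with B220+CD23+ spleen cells in mice of 2 genotypes. The comparison used 11 of the 17 arrays of the series: 5 of B220+CD23-IgM+ cells (2 from control and 3 from c-myb h/h mice) and 6 of B220+CD23+ cells (3 and 3), chosen by the cell type in the sample labels. Control mice carried the LDL-R KO background, which removes the low-density lipoprotein receptor in the whole animal, and the c-myb h/h mice carried it too. All mice had received a high cholesterol diet for 12 weeks, and no group on another diet was analysed here. The remaining 6 arrays, of IgM+CD138+ cells, are given beside the results and entered the fits only in an alternative with all arrays and in the examination of names. The labels describe separate mice, and arrays of a genotype that carry the same number were taken as 1 mouse, which the labels do not state outright.

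Splenic B cells fall into several populations. Follicular B cells carry CD23, the low-affinity IgE receptor, recirculate through lymphoid follicles and supply most T-cell-dependent antibody responses. Marginal zone B cells lie beside the marginal sinus, sense blood-borne antigen, carry high CD21 and CD1d and have little CD23. A gate on B220, IgM and absence of CD23 can also hold B-1 cells, transitional cells and age-associated B cells, so it does not select a single cell type. Because bulk RNA of sorted cells was measured, fewer cells of a type and less RNA per cell cannot be told apart.

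The names in the deposited list could not be used as they stand. Its values are displaced against its probe set IDs: rows listed under broadly used gene families (ribosomal, proteasomal, splicing and others) were lower than rows listed under tissue-restricted families (odorant receptors, keratins and others) by 0.15 to 0.20 log2 in every array. Every result below is therefore identified by its row in the deposited list. A row is also given a gene where a model of the displacement, fitted to the mean levels of the rows and not to any difference between samples, placed it with a probability of at least 0.9 and identically in all 3 versions of the model that were tried. The fitted displacement grew along the list from 0 at its start to 123, 236 and 338 rows at the 10000th, 20000th and 30000th row with values, and to 376 at its end. Such a name is an estimate and not a property of the row. Of 33327 rows with values 15417 received a name, and names were not free of error. Of 475 named rows of broadly used families, 46 (9.68%) lay under the median level. The row placed at Actb, which encodes a major actin, had a level of only 6.31. Because the model used the levels of these families to place rows, the share of 9.68% is not the error rate of the names.

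**Figure D1:**
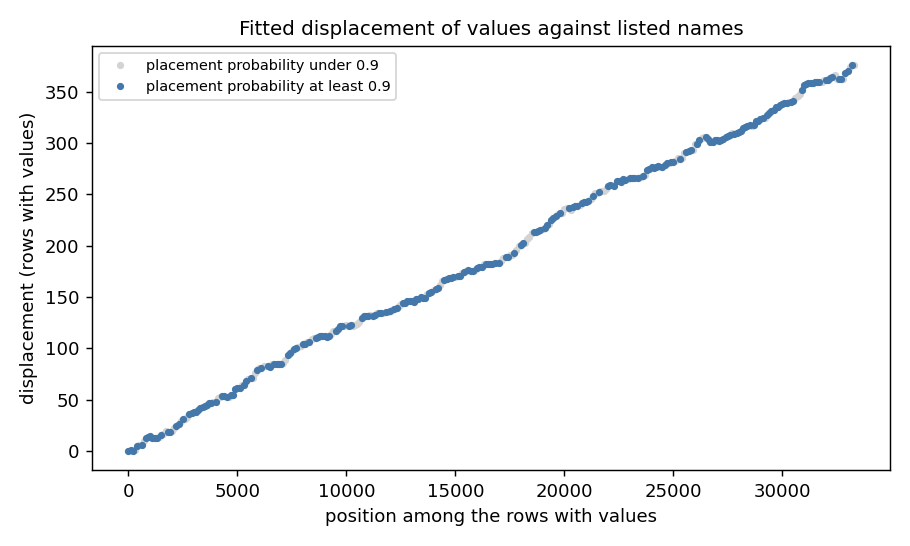
Fitted displacement of the deposited values against the listed names (vertical axis, in rows with values) along the list (horizontal axis), shown for every 100th row with values. Blue points were placed with a probability of at least 0.9 and grey points with less; the displacement grows from 0 at the start to 376 at the end.

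How far the names hold was examined with genes that have 2 distant probe sets. Both probe sets of a gene should show a like difference between IgM+CD138+ cells and the other cells, a contrast that the placement did not use. Under the names as listed the 2 differences were unrelated, with Pearson's r = 0.0046 over 788 genes. Under the names used here r was 0.50 over 299 genes, and over 132 genes whose name also held in a coarser model built on gene families alone it was 0.66. These are correlations across genes, which are not independent replicates. The first version of the model named 9290 rows with r = 0.67, the second 15362 rows with r = 0.51 and the third 15454 rows with r = 0.50, so more names came with a lower value. The mean levels of the 2 probe sets, which the placement did use, correlated at 0.04 as listed, 0.21 over the 299 genes and 0.34 over the 132. The check on genes with 2 probe sets, the placement of well-known B cell genes and the leading rows of this comparison had been seen when the later versions were made. Neither the check nor the counts of marker genes below are therefore independent of the names.

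The populations differed in 1694 of 18364 rows tested (9.22%; limma, Benjamini-Hochberg adjusted p under 0.05). Of these, 1079 rows (5.88% of those tested) were higher in B220+CD23-IgM+ cells and 615 (3.35%) were lower. The balance moved with the scaling, to 1278 higher and 466 lower with each array centred on its median and to 965 and 770 with quantile normalization. Large differences lay mostly on the higher side: 131 called rows were at least 2-fold higher and 29 at least 2-fold lower, and 11 and 3 passed 4-fold. The median difference over all rows tested was -0.01 log2. In 947 of the 1694 called rows the 5 B220+CD23-IgM+ arrays did not overlap with the 6 B220+CD23+ arrays. Over all 18364 rows tested, called or not, this held in 1148 (6.25%). On the first principal component, with 38.2% of the variance, the control B220+CD23-IgM+ array 2 lay at -1.10, between c-myb h/h B220+CD23+ array 1 at -1.94 and the other 4 B220+CD23-IgM+ arrays at 15.8 to 30.4.

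The strongest decrease fell on the sort antigen. Row 35255 (listed ID 17503389) was placed at Fcer2a, which encodes CD23, with a probability of 0.998. Its log2 level was 10.7 at the lowest, 10.7 at the median and 10.9 at the highest of the 6 B220+CD23+ arrays. In B220+CD23-IgM+ cells it was 7.84 and 8.59 in the control arrays 1 and 2, and 7.70, 7.72 and 7.64 in the c-myb h/h arrays 1, 2 and 3. The populations did not overlap, and the second control array was the highest of its population. The row was 7.05-fold lower in B220+CD23-IgM+ cells (log2 difference -2.82, SE 0.13, limma adjusted p = 2.01e-07), and the difference was -2.99 without that control array. Since the cells were sorted on CD23, this decrease describes the gate. The coarser model built on families alone placed this row elsewhere. The same held for rows placed below at Ccr7, Klf2, Cd1d1, Cd36, Spn, Cd24a, Cd93, Top2a, Adgre1, Ptprc, Cd79b, Tbc1d9 and Dclk2. Of the 15417 names 10348 also held in that model, as did 70 of the 99 names of called rows past 2-fold.

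Decreases in other follicular B cell genes were smaller. Of 8 genes in the follicular list, 6 were placed by name and tested. Of these, 4 fell and none rose, beside 3.35% lower and 5.88% higher among all rows tested. Without Fcer2a, 3 of the other 5 fell, with a median difference of -0.61 log2, against -0.01 over all rows. Row 19140, placed at Satb1, a chromatin organiser of lymphocytes, fell by 1.12 (SE 0.13, limma adjusted p = 0.000231). Its level was 8.69 and 8.60 in the control arrays and 7.96, 7.80 and 8.57 in the c-myb h/h arrays of B220+CD23-IgM+ cells, against 9.29 to 9.75 in B220+CD23+ cells. Row 6965, placed at Cd55, which shields cells from complement, fell by 0.86, and row 11077, placed at Ccr7, a chemokine receptor that guides lymphocytes to T cell zones, fell by 0.61 (limma adjusted p = 0.000143 and 0.00154). Rows placed at Cxcr5, the follicle-homing receptor, and Klf2, a regulator of lymphocyte trafficking, differed by -0.07 and -0.29 and did not pass the test (limma adjusted p = 0.642 and 0.177).

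Rows placed at kinase and other genes were also among the 12 largest decreases without overlap. Rows 16540 and 16539 (listed IDs 17318950 and 17318942), neighbours in the list, were placed at Mapk11 and Mapk12, which encode p38 family kinases. Row 16540 had 7.06 and 7.49 in the control arrays and 6.34, 6.70 and 6.32 in the c-myb h/h arrays of B220+CD23-IgM+ cells, against 8.39 to 9.41 in B220+CD23+ arrays. It was 3.68-fold lower (log2 difference -1.88, SE 0.13) and its neighbour 2.85-fold lower (-1.51, SE 0.12), both without overlap. Row 18342 (listed ID 17336965) was placed at Zfp318, a nuclear protein required for the long transcripts that give IgD on mature B cells. It had 9.08 and 9.42 in the control arrays and 9.19, 9.08 and 8.86 in the c-myb h/h arrays of B220+CD23-IgM+ cells, against 10.4 to 10.8 in B220+CD23+ arrays (difference -1.40, SE 0.09, limma adjusted p = 4.77e-06).

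Near Zfp318 in the list lay rows 18343 and 18344, the latter (listed ID 17336980) placed at Crip3, a LIM domain protein. These 3 rows formed a run of neighbouring decreases of 1.03 to 1.40 log2. Row 18390 (listed ID 17337406), placed at the predicted gene Gm19585, lay in the same window of 100 rows and fell by 1.22. Row 25149 (listed ID 17404470), placed at Dclk2, a microtubule-associated kinase, fell by 1.24, and row 11886 (listed ID 17277060), placed at the predicted gene Gm19951, by 2.35. The 4 remaining lead rows had no accepted name. Row 19045 (listed ID 17343643) was at 5.45 to 5.79 in B220+CD23-IgM+ arrays against 7.81 to 8.62 in B220+CD23+ arrays, a difference of -2.62. Rows 24717, 32202 and 6964 (listed IDs 17400091, 17474863 and 17226473) fell by 1.34, 1.31 and 1.21.

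**Figure D2:**
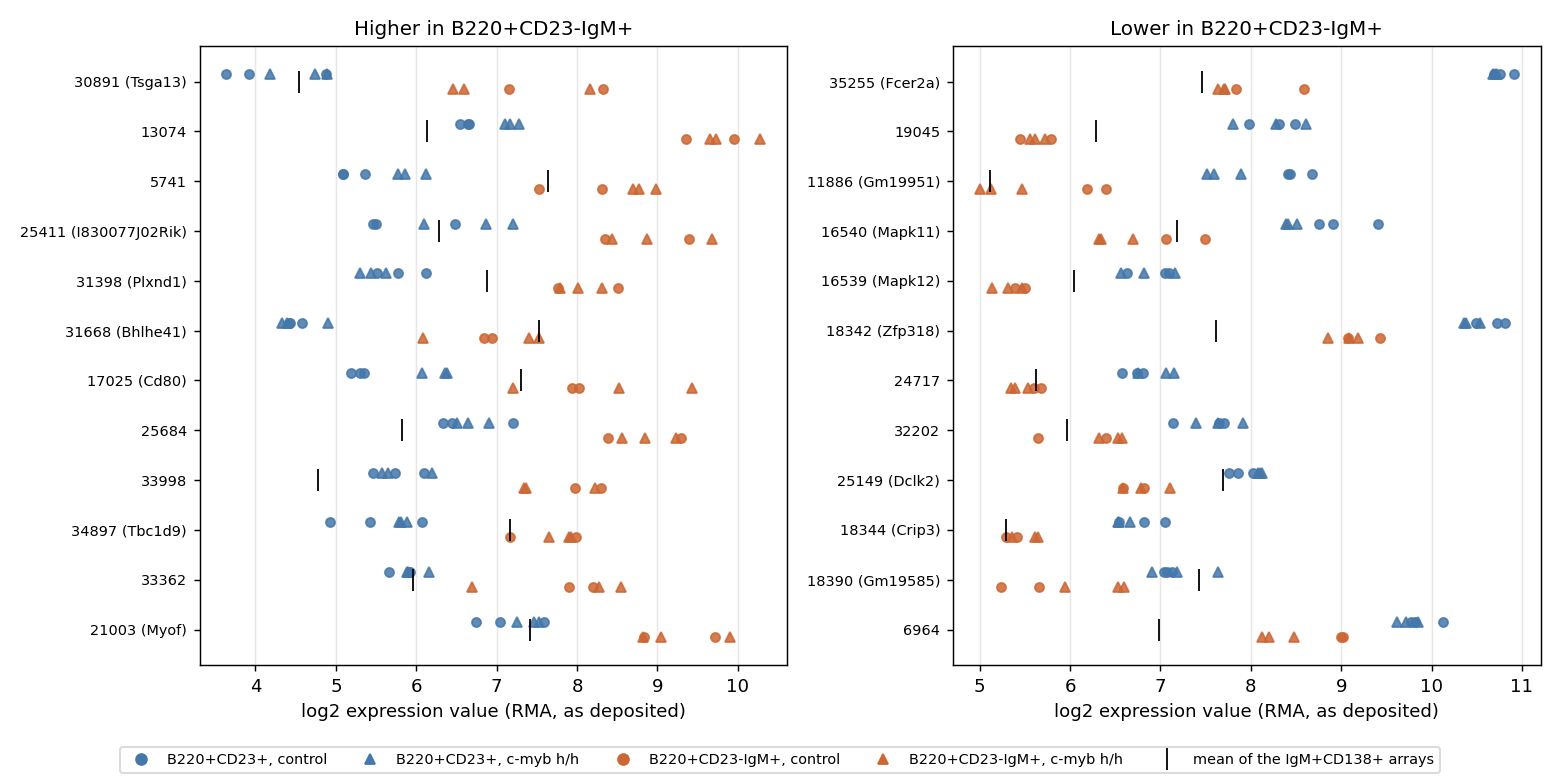
Log2 expression value of each array (horizontal axis) in the 12 rows with the largest increase (left) and decrease (right) among called rows without overlap; the vertical axis gives the listed row and, where accepted, its placed gene. Blue points are B220+CD23+ arrays and orange points B220+CD23-IgM+ arrays, circles are control and triangles c-myb h/h mice, and the black tick is the mean of the IgM+CD138+ arrays; no orange point of a row lies within the range of its blue points.

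On the higher side, marginal zone genes rose together. Of 12 genes in the marginal zone list, 7 were placed by name and 6 tested. Of the 6, 5 rose and none fell, beside 5.88% higher and 3.35% lower among all rows tested. The median difference was 0.92 log2, against -0.01 over all rows. The largest belonged to row 21003 (listed ID 17362765), placed at Myof, a membrane repair protein. It had 9.72 and 8.83 in the control arrays and 9.04, 8.82 and 9.90 in the c-myb h/h arrays of B220+CD23-IgM+ cells, against 6.74 to 7.58 in B220+CD23+ arrays, and was 3.95-fold higher (log2 difference 1.98, SE 0.22, limma adjusted p = 0.000205). Row 31493, placed at Cd9, a tetraspanin of marginal zone and B-1 cells, rose by 1.17. Row 25150, placed at Cd1d1, which presents lipid antigens, rose by 0.93 from a mean of 7.07 ± 0.21 (SD, n = 6) to 8.01 ± 0.25 (SD, n = 5). Rows placed at Plac8 and Dtx1, the latter a Notch pathway gene, rose by 0.90 and 0.69. Row 28831, placed at Cd36, a scavenger receptor, differed by 0.16 and did not pass the test (limma adjusted p = 0.461).

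Of the other marginal zone genes, 4 had a placement below the rule for names. The row best placed at Cr2, which encodes CD21, differed by 0.33 (probability 0.813) and did not pass the test (limma adjusted p = 0.139). Rows best placed at S1pr1 (0.890), a receptor for lymphocyte egress, and Mzb1 (0.550), a chaperone of antibody assembly, were higher by 0.57 and 1.38. The last, row 13074 (listed ID 17286548), showed the second largest increase of all lead rows. It had 9.95 and 9.35 in the control arrays and 9.66, 9.73 and 10.3 in the c-myb h/h arrays of B220+CD23-IgM+ cells, against 6.54 to 7.28 in B220+CD23+ arrays. It was 7.23-fold higher (log2 difference 2.85, SE 0.13, limma adjusted p = 2.01e-07). Its best placement was S1pr3, a sphingosine phosphate receptor of marginal zone B cells, but with a probability of only 0.559, and the versions of the model did not place it alike. Row 5741 (listed ID 17213548), 7.10-fold higher, was best placed at Nrp2, a semaphorin receptor, with a probability of 0.780.

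Further lead rows were higher in B220+CD23-IgM+ cells. Row 17025 (listed ID 17324247) was placed at Cd80, a costimulatory ligand for T cells. It had 7.94 and 8.03 in the control arrays and 8.52, 9.43 and 7.20 in the c-myb h/h arrays of B220+CD23-IgM+ cells, against 5.19 to 6.39 in B220+CD23+ arrays, and was 5.19-fold higher. Row 31398 (listed ID 17467424), placed at Plxnd1, a semaphorin receptor, was 5.54-fold higher, with 7.76 to 8.50 against 5.30 to 6.13. Row 34897 (listed ID 17499949), placed at Tbc1d9, a GTPase-activating protein family member, was 4.13-fold higher. Row 25411 (listed ID 17406827), placed at I830077J02Rik, was 6.15-fold higher. The largest increase of all, 7.84-fold, was in row 30891 (listed ID 17463106), at 8.33 and 7.16 in the control arrays and 6.46, 6.59 and 8.16 in the c-myb h/h arrays of B220+CD23-IgM+ cells against 3.64 to 4.89 in B220+CD23+ arrays. It was placed at Tsga13, a gene named for its expression in testis. Rows 25684, 33998 and 33362 (listed IDs 17409477, 17491747 and 17486455), with no accepted name, rose by 2.19, 2.07 and 2.02.

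The list of B-1 genes gave a mixed picture. Of 6 genes, 4 were placed by name and tested. Of the 4, 2 rose and none fell, beside 5.88% higher and 3.35% lower among all rows tested. The median difference was 0.51 log2, against -0.01 over all rows. Row 31668 (listed ID 17469682) was placed at Bhlhe41, a transcription factor of B-1 cells. It had 6.84 and 6.94 in the control arrays and 7.41, 7.53 and 6.09 in the c-myb h/h arrays of B220+CD23-IgM+ cells, against 4.33 to 4.90 in B220+CD23+ arrays, and was 5.45-fold higher (log2 difference 2.45, SE 0.22, limma adjusted p = 4.33e-05). Row 34235, placed at Spn, which encodes CD43, rose by 0.58 (limma adjusted p = 0.0368), a call that was lost with mouse as a fixed replicate block (0.0879). At rows 20835 and 20240, placed at Cd5 and Ahnak, the differences were -0.06 and 0.43, and neither passed the test (limma adjusted p = 0.785 and 0.145). Rows best placed at Zbtb32 (probability 0.576) and Itgam (0.855) were below the rule for names. They differed by 0.31 and 1.26 and did not pass (limma adjusted p = 0.138 and 0.0778). With mouse as a fixed replicate block the row best placed at Itgam was called higher (limma adjusted p = 0.00992).

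Of the 160 called rows that differed at least 2-fold, 99 had a name, 81 higher and 18 lower. The genes of the following sentences were chosen from these after their values had been seen. Row 24382, placed at Fcrl5, an Fc receptor-like protein of innate-like B cells, rose from 8.10 ± 0.52 (SD, n = 6) to 10.1 ± 0.33 (SD, n = 5). Row 36865, placed at Ackr2, a scavenging chemokine receptor, rose by 1.71 and row 36398, placed at Sema7a, a membrane-bound semaphorin, by 1.57. Row 36589, placed at Nt5e, which encodes the ectonucleotidase CD73, rose by 1.5, and row 12241, placed at the ligand-activated transcription factor Ahr, by 1.40. Row 35246, placed at Itgb1, the integrin beta chain shared by many adhesion receptors, rose by 1.74. Among antibody genes, row 12627, placed at Ighg3, rose from 7.88 ± 0.68 (SD, n = 6) to 9.88 ± 0.33 (SD, n = 5). On the lower side were rows placed at the surface molecules Cd200 and Slamf1, which fell by 1.07 and 1.06, and at Fcgrt, the neonatal Fc receptor, which fell by 1.10.

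Markers of cell cycle rose as well. Of 5 proliferation genes, 3 were placed by name and tested, and all 3 rose, beside 5.88% of all rows tested, with a median of 1.11 log2 against -0.01. A row best placed at Aurka, a mitotic kinase (probability 0.768), differed by 0.22 and did not pass the test (limma adjusted p = 0.154). Row 34310, placed at Mki67, the Ki-67 antigen, had 8.41 and 9.11 in the control arrays and 9.42, 8.81 and 7.86 in the c-myb h/h arrays of B220+CD23-IgM+ cells. In B220+CD23+ arrays it had 7.69, 6.13 and 6.39 in the control and 8.23, 7.76 and 7.68 in the c-myb h/h group, so the populations overlapped (difference 1.34, SE 0.35, limma adjusted p = 0.0336). With mouse as a fixed replicate block it was not called (limma adjusted p = 0.0550). Rows placed at Top2a, a topoisomerase, and Cdk1, the mitotic kinase, rose by 1.11 and 1.003 (limma adjusted p = 0.0130 and 0.0418), and there too the populations overlapped. Within c-myb h/h mice none of the 3 rows passed (limma adjusted p = 0.315 for Mki67, 0.17 for Top2a and 0.19 for Cdk1). Within control mice only the row placed at Top2a did (limma adjusted p = 0.0419, against 0.0653 for Mki67 and 0.297 for Cdk1). Of 5 transitional genes 4 were tested and 1 rose, Cd24a, by 0.40, beside 5.88% of all rows tested. Row 23706, placed at Cd93, a surface marker of immature B cells, was at 6.39 and 7.90 in the control arrays and at 5.65, 5.01 and 4.80 in the c-myb h/h arrays of B220+CD23-IgM+ cells and did not pass the test (limma adjusted p = 0.71).

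Of 7 genes shared by B cells only 2 were placed by name, and neither passed the test. The rows placed at Ptprc, whose B cell isoform is B220, and Cd79b, a chain of the B cell receptor complex, were at 12.2 and 12.0 in B220+CD23+ and at 12.0 and 12.1 in B220+CD23-IgM+ cells. Their differences were -0.14 and 0.12. Of 3 tested rows below the rule for names, that best placed at Ms4a1, which encodes CD20, was called higher by 0.25 (probability 0.611). Its limma adjusted p was 0.0470, and 0.127 with mouse as a fixed replicate block. Those best placed at Cd79a and Pax5 differed by -0.13 and -0.10 without passing. In B220+CD23+ cells the row best placed at Cd79a had a mean of only 6.46, and that best placed at Cd22, not tested, 3.64. Such low levels for genes of B cells make these placements doubtful. Of 6 genes of antibody-secreting cells 4 were placed by name and 3 tested, and none passed. The row best placed at Prdm1 (probability 0.723) was called higher by 0.47 (limma adjusted p = 0.0146). With mouse as a fixed replicate block it was not called (limma adjusted p = 0.0561). The row best placed at Sdc1, which encodes CD138, did not pass. Its mean was lower in IgM+CD138+ cells (6.48) than in B220+CD23+ cells (7.03), which makes this placement doubtful. The mean level of the 4 named rows was 6.77 to 7.41 in B220+CD23+, 7.15 to 7.96 in B220+CD23-IgM+ and 11.2 to 11.3 in IgM+CD138+ arrays.

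**Figure D3:**
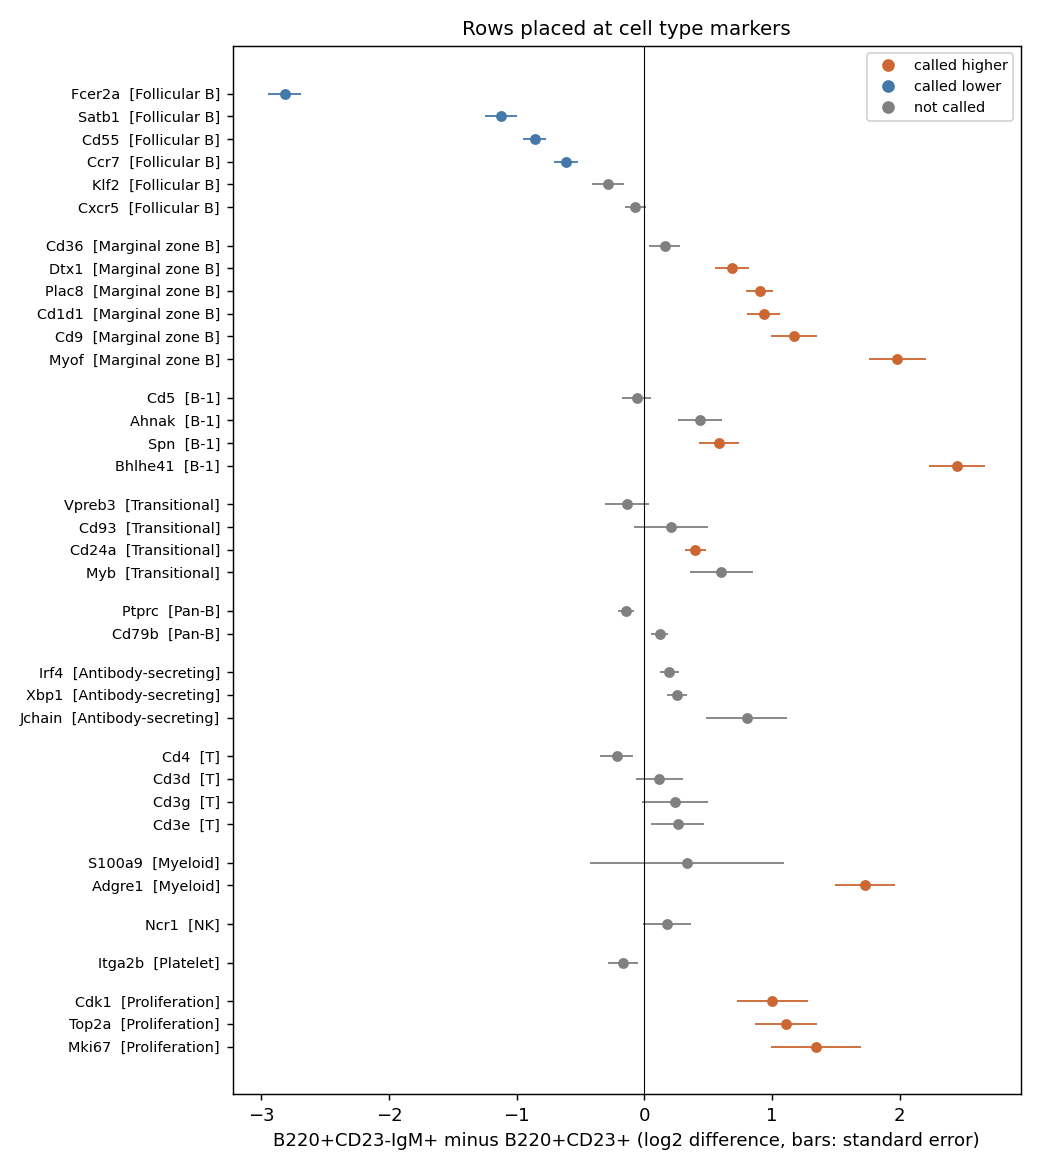
Log2 difference of B220+CD23-IgM+ minus B220+CD23+ cells (horizontal axis) with its standard error, for rows that were placed by name at genes of the cell type lists and tested. Orange points were called higher, blue points lower and grey points not called; the follicular genes Fcer2a, Satb1, Cd55 and Ccr7 lie left of 0 and all marginal zone genes right of it.

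Markers of other blood cells were examined beside these groups. Of 6 myeloid genes only 2 were placed by name. The row best placed at Itgam, which is also in this list, is given with the B-1 genes. Rows best placed at Csf1r (probability 0.786) and Lyz2 (0.491) differed by 0.33 and 0.38 without passing (limma adjusted p = 0.294 and 0.679). The row best placed at S100a8 (0.507) was not tested. Row 18430, placed at Adgre1, a surface receptor used to mark macrophages, rose by 1.73 (SE 0.23, limma adjusted p = 0.000716). It was at 7.35 and 7.46 in the control arrays and 9.24, 9.43 and 7.92 in the c-myb h/h arrays of B220+CD23-IgM+ cells, against 5.91 to 7.25 in B220+CD23+ arrays. Row 25224, placed at S100a9, a granulocyte calprotectin subunit, did not pass the test (difference 0.33, limma adjusted p = 0.830). The mean level of both rows spanned 5.93 to 8.20 in B220+CD23+ and 6.77 to 9.43 in B220+CD23-IgM+ arrays, and their part in the increases was not tested. None of the 4 T cell, 1 NK and 1 platelet rows tested passed, while a row best placed at Prf1 (perforin; probability below 0.9) was called higher by 0.85. The mean level of the T cell rows was 6.07 to 6.75 in B220+CD23+ and 6.08 to 6.94 in B220+CD23-IgM+ arrays. No row was placed at any of the 5 erythroid genes.

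The differences were then examined within each genotype. In control mice 373 rows (2.03%) were called, 258 higher and 115 lower, and in c-myb h/h mice 875 (4.76%), 516 higher and 359 lower. The latter split was 652 higher and 281 lower with each array centred on its median, 426 and 386 with quantile normalization, and 194 and 213 with ordinary least squares. Called in both genotypes were 256 rows, 68.6% of the control calls and 29.3% of the c-myb h/h calls, and 254 of them had the same direction. All 24 lead rows were called in each genotype with the same sign, and each of the 5 pairs of arrays with the same number showed that sign in all 24. The choice of rows without overlap fixed these signs in advance. The rows were also chosen on the arrays of both genotypes, so this describes them and is no separate evidence. The row placed at Fcer2a, for example, had a difference of -2.57 in the control group and of -3.01 in the c-myb h/h group, and row 13074 by 3.04 and 2.71.

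**Figure D4:**
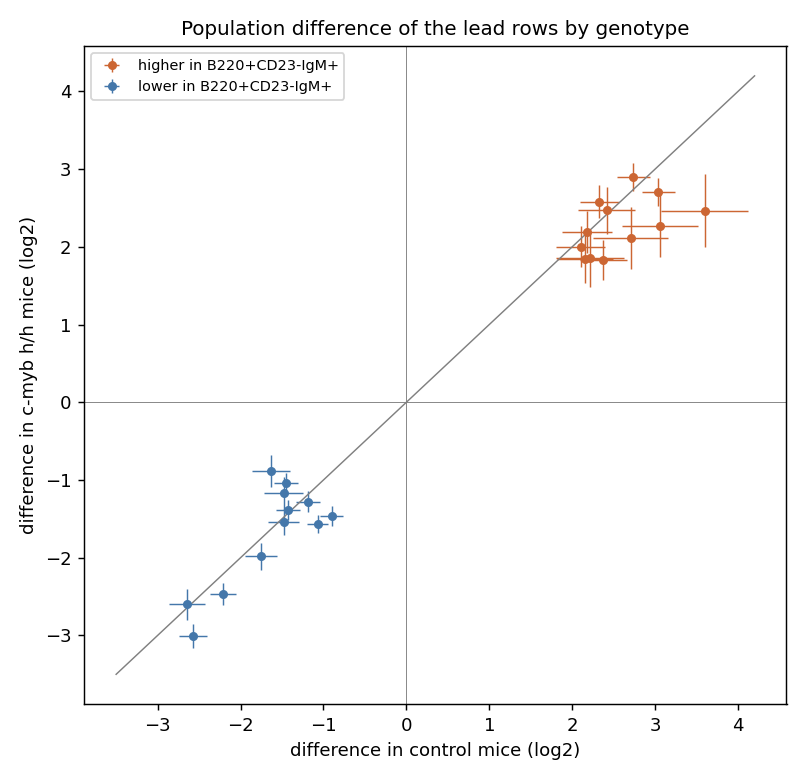
Log2 difference of B220+CD23-IgM+ minus B220+CD23+ cells in control mice (horizontal axis) and in c-myb h/h mice (vertical axis) for the 24 lead rows, with standard errors; orange rows were higher and blue rows lower. All 24 rows have the same sign in both genotypes, which their choice without overlap fixed in advance, and the grey diagonal marks equal differences.

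No row passed the test of the difference between genotypes itself (0%; limma interaction term, lowest adjusted p = 0.169), with 1149 rows at an unadjusted p under 0.05. The 3 rows with the lowest p had no name. Row 6475 (listed ID 17221186) was higher in B220+CD23-IgM+ cells by 0.66 in control mice, against a difference of -0.72 in the c-myb h/h group, an interaction of -1.38 (SE 0.18). Its values in B220+CD23-IgM+ arrays were 5.92 and 6.09 for the controls against 4.91, 5.33 and 4.94 for c-myb h/h. When array 2 of the c-myb h/h B220+CD23-IgM+ group was left out, this row was called (limma adjusted p = 0.0224). Rows 12631 and 34681 (listed IDs 17283641 and 17497885) had interactions of -1.37 and -0.78 (limma adjusted p = 0.309 and 0.326). Row 8275, placed at Myb, the gene named in the genotype, had 6.94 and 8.30 in the control arrays and 7.75, 7.42 and 6.66 in the c-myb h/h arrays of B220+CD23-IgM+ cells, and 6.44 to 7.10 over the 6 B220+CD23+ arrays. It did not separate the genotypes, and the labels do not say which part of the gene the allele alters.

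The 160 rows past 2-fold were spread along the list. Of 349 windows of 100 listed rows with tested rows, 116 held at least 1, 84 of them exactly 1, and the densest 3 held 4 each. These windows began at rows 24601, 15801 and 18301, where 20.4%, 12.0% and 9.84% of the tested rows were called, against 9.22% over the list. The first held Ptpn22, a lymphocyte phosphatase, and 3 rows without a name. The second held Csf2rb, a cytokine receptor chain, and Lgals1, a galectin, both higher, and 2 rows without a name. No run of 4 or more rows of one direction with gaps of at most 10 rows was found. There were 5 runs of 3 rows, 3 higher and 2 lower, among them rows 25738 to 25740, which fell by 1.02 to 1.34.

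In IgM+CD138+ cells the rows that were higher in B220+CD23-IgM+ cells took no single position. Of the 131 rows at least 2-fold higher, the IgM+CD138+ mean lay above both other populations in 42, between them in 56 and below both in 33. The row placed at Bhlhe41 was at 7.27 to 7.79 in IgM+CD138+ arrays, above the mean of both other populations, and the row placed at Myof was at 7.09 to 7.76, near its B220+CD23+ level. Row 13074 was at 5.26 to 6.88, below its B220+CD23+ mean. Of the 29 rows at least 2-fold lower, the IgM+CD138+ mean was below both in 18, between in 10 and above both in 1. Row 18342 (Zfp318) was at 6.68 to 8.42 and the row placed at Fcer2a at 6.0 to 8.49.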

How the data were processed

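Per the labels' protocols, RNA was extracted from sorted spleen cells, and each sample has 1 array. The authors deposited log2 values; the submitters' processing notes name RMA without a version. Values of 33327 of 41801 listed rows were used, the 8474 others being blank. Rows above the median of the array in 2 or more of the 11 arrays were tested. Differences were fitted with limma 3.58.1 in R 4.3.3 (lmFit, eBayes, 2-sided, genotype as a term, 8 residual degrees of freedom) and called under an adjusted p of 0.05 (Benjamini-Hochberg). Genotypes and their interaction were contrasts of 4 group means. The fits and the placement were checked on simulated data. Precision is limited by how few arrays there are. Figures were drawn with matplotlib 3.10.9.

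Names came from a hidden Markov model of the displacement, with the decile of a row's mean level over 17 arrays given the annotation class of a probe set (symbols updated through RefSeq). This model is the last of 3 versions. The first used 5 annotation classes, the second added classes for symbol stems, and the third added single genes known to be highly expressed, after genes such as Blk and H2-Ab1 had been seen misplaced. The versions were revised with the placement of marker genes, the leading rows of this comparison and the check on genes with 2 probe sets in view, so neither that check nor the markers are independent of the model. Requiring the same name in all 3 versions was decided afterwards. Where a list gene had several named rows, the brightest was used.

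The comparison, its rows and the gene lists were chosen with earlier results of these data known. Lead rows are the 12 largest differences in each direction among called rows whose populations do not overlap; further rows are the 3 lowest interaction p-values, the densest windows and runs. The plan allowed symbols only where the names as listed held, which they did not, so names from the model are a departure from it. Deviations of arrays with the same number correlated at 0.42 and 0.31 in control and 0.21, 0.07 and 0.04 in the c-myb h/h group; between different numbers r was -0.42 to 0.20. Deviations were taken from each group's own mean, which ties the values for different numbers to those for the same number. The 2 control B220+CD23-IgM+ arrays have mirror-image deviations, so that range is no separate reference. In 2 of the 5 pairs r was below 0.1, and whether the numbers pair the arrays was not settled. The fit without the block is the main one. The block is given where it ends a call, and for the row best placed at Itgam, where it adds one. Alternatives covered the filter, normalization, variance model, array weights, arrays in the fit, replicate block, a 1.5-fold threshold, window size and the versions of the model.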

Additional observations from a re-analysis of the deposited data

Results flagged for a closer look

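In 48 groups examined (the 24 lead rows in each population), 3 held an array far from the others of its population; chance alone marks about 1 in 20 groups. The row placed at Fcer2a had 10.9 in control B220+CD23+ array 3, above the other B220+CD23+ arrays, and 8.59 in control B220+CD23-IgM+ array 2, above the other arrays of that population. Row 32202 had 5.64 in the same control B220+CD23-IgM+ array 2, below the others.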

How the results depend on the processing

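All 24 lead rows kept their direction under every alternative run, and 526 of 528 refits kept the call. The direction is no test of these rows. They were chosen without overlap, so leaving out 1 array could not reverse them. The alternatives of filter, variance model and 1.5-fold threshold left their differences unchanged. Rows 32202 and 18390 lost the call only under the test for at least 1.5-fold (limma adjusted p = 0.0688 and 0.346). That test called 66 rows with the genotypes together, 13 in the control group and 28 in the c-myb h/h group. Without a filter 221 rows were called for control and 493 for c-myb h/h mice, and with ordinary least squares 109 and 407; the cause was not tested. With mouse as a fixed replicate block 1401 rows were called with the genotypes together, 222 for control and 826 for c-myb h/h mice, and as a random replicate block 1849. Of the named list genes called, Spn and Mki67 lost the call under the fixed block. Leaving out 1 array gave 1120 to 1856 calls with the genotypes together, 98 to 505 for control and 293 to 848 for c-myb h/h mice, and 0 to 1 for the interaction. Control calls fell by over 1.5 times to 156 and 133 without control B220+CD23+ array 2 or 3 and to 98 and 200 without control B220+CD23-IgM+ array 1 or 2, where the lone array is assumed to vary like the other groups. Calls in c-myb h/h mice fell likewise to 569, 336 and 293 without B220+CD23+ array 1, 2 or 3 and to 516 and 574 without B220+CD23-IgM+ array 1 or 2. Calls with the genotypes together fell by over 1.5 times only without c-myb h/h B220+CD23+ array 2 (1120). The densest window held 3 to 6 rows past 2-fold at other window sizes or starts.

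The versions of the model, alternatives chosen after seeing the data, named 10, 15 and 16 of the 24 lead rows against 15 here, and 12 when the model on families alone also had to agree. No lead row named here had a different name in any of these versions. The rule for names required the same name in all of them, so this is no test of the names.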

Other observations

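The row placed at S100a9 varied widely within both populations and took similar levels in the arrays that carry the same number in control mice: 9.51 and 9.40 in number 1 and 5.85 and 6.08 in number 2 (B220+CD23+ and B220+CD23-IgM+ arrays). In c-myb h/h mice the levels were 9.57 and 9.62 in number 1, 8.26 and 8.03 in number 2 and 7.20 and 7.71 in number 3.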
